A study of Homo sapiens with 20 samples.

Results

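EHF, ELF3, OVOL1, OVOL2, GRHL2, SOX4 and SOX9 are 7 genes for transcription factors of epithelial cells, out of 15531 genes in the deposited tables. They were selected on measured values of these libraries: EHF was low late with chaetocin and chetomin, OVOL1 was high with chaetocin and SOX4 was low. Values of the 7 genes with chaetocin or chetomin against vehicle, or against the analog of each, are therefore given as descriptions without a test. RNA was sequenced from HCT116, an established human colorectal carcinoma cell line, in 20 libraries. Cells received DMSO vehicle at 0.5%, or chaetocin, chetomin, MeS-chaetocin or MeS-chetomin, each at 500 nM. RNA was taken at 5 h or at 12 h, with 2 libraries in each of the 10 groups. Chaetocin and chetomin are fungal metabolites that carry a disulfide bridge, and the labels describe MeS-chaetocin and MeS-chetomin as analogs depleted of sulfide. The replicates are named biological in the labels, and the sources used here do not say whether they came from separate cultures. All groups are 1 cell line, so p-values measure the spread between these libraries.

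EHF and ELF3 are epithelium-specific members of the ETS family, which binds DNA through a winged helix domain. OVOL1 and OVOL2 are zinc finger proteins that repress mesenchymal regulators, and in mouse skin OVOL1 limits the proliferation of epidermal progenitors. GRHL2 is a grainyhead factor that maintains expression of adherens and tight junction genes. SOX4 and SOX9 are SOX factors with an HMG box. SOX9 is a factor of crypt base cells in the intestine, and SOX4 is often abundant in colorectal tumours.

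Upstream sequences are shown for EHF and ELF3, the pair of ETS members, because ELF3 was low with chaetocin and chetomin from 5 h while EHF was low at 12 h. The RefSeq promoter table (GRCh38.p14) matched 3 of the 7 members. Its windows of 250 bases before the start are given 5′ to 3′ on the plus strand, with motif matches on either strand in capitals. EHF has 2 starts in it, at windows chr11:34624007-34624256 and chr11:34632316-34632565, and ELF3 has 1 at chr1:202010337-202010586. The window of SOX4, at chr6:21593501-21593750, lies inside the exon of the GENCODE transcript and is not shown.
EHF start 1: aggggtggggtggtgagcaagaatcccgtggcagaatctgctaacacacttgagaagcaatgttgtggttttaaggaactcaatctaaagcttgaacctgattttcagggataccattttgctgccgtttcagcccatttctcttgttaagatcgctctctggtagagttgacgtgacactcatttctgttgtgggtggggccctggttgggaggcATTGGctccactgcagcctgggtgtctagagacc
EHF start 2: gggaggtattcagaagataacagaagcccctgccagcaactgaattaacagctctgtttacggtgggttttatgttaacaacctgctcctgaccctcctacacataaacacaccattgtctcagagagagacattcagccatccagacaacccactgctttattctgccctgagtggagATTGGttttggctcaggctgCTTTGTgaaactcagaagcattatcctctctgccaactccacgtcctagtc
ELF3: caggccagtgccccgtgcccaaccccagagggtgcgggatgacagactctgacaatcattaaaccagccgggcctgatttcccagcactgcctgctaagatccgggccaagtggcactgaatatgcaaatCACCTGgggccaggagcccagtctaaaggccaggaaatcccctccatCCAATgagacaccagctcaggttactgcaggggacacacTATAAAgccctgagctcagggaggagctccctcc
Motifs searched were the TATA box TATAAA, the box with the letters CCAAT, the ETS core CGGAAG, the grainyhead motif AACCGGTT, the OVO core CCGTTA, the SOX core ACAAAG and the E-box CAGGTG. ELF3 has TATAAA 34 bases before its start, CCAAT beginning 73 bases before it and the reverse complement of CAGGTG beginning 120 bases before it. Both EHF windows hold the reverse complement of CCAAT, read here as ATTGG, beginning 34 and 71 bases before the start, and the second also holds the reverse complement of ACAAAG, read as CTTTGT. None of the matches overlap. Of 35116 promoters in the table, 10.7% hold TATAAA in these 250 bases, 32% hold CCAAT, 17.5% hold CAGGTG and 13.7% hold ACAAAG. No window of EHF or ELF3 holds CGGAAG (16.5% of promoters), CCGTTA (2.45%) or AACCGGTT (0.117%).

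All 7 genes had a value in every library. Values are the authors' normalized values. They appear to be adjusted for transcript length, because the authors' CPM per unit of value rose with it. Levels were therefore compared between genes within a time. The tables of the 2 times may have been normalized separately, so differences between times were not tested. In vehicle at 5 h the order was SOX4 (mean 29.9), ELF3 (29.7), SOX9 (8.21), GRHL2 (5.46), OVOL1 (4.86), EHF (3.21) and OVOL2 (1.71). The libraries of SOX4 and ELF3 overlapped there, as did those of GRHL2 and OVOL1. At 12 h the order was ELF3 (70.8), SOX4 (41.6), SOX9 (19.1), GRHL2 (11.6), EHF (11.1), OVOL1 (7.61) and OVOL2 (3.32), and GRHL2 and EHF overlapped. All 7 vehicle means were higher at 12 h than at 5 h, by 1.39 times for SOX4 to 3.45 times for EHF, beside 1.15 times for the median of 11839 genes with a mean of at least 1. On the authors' mean CPM the ratio for EHF was 2.34, below the 2.43 of ELF3. With chaetocin the order was led by OVOL1 at both times, at 45.2 and 108, and with chetomin at 5 h, at 35.3. In both analog groups at both times ELF3 and SOX4 led, as in vehicle.

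**Figure D1:**
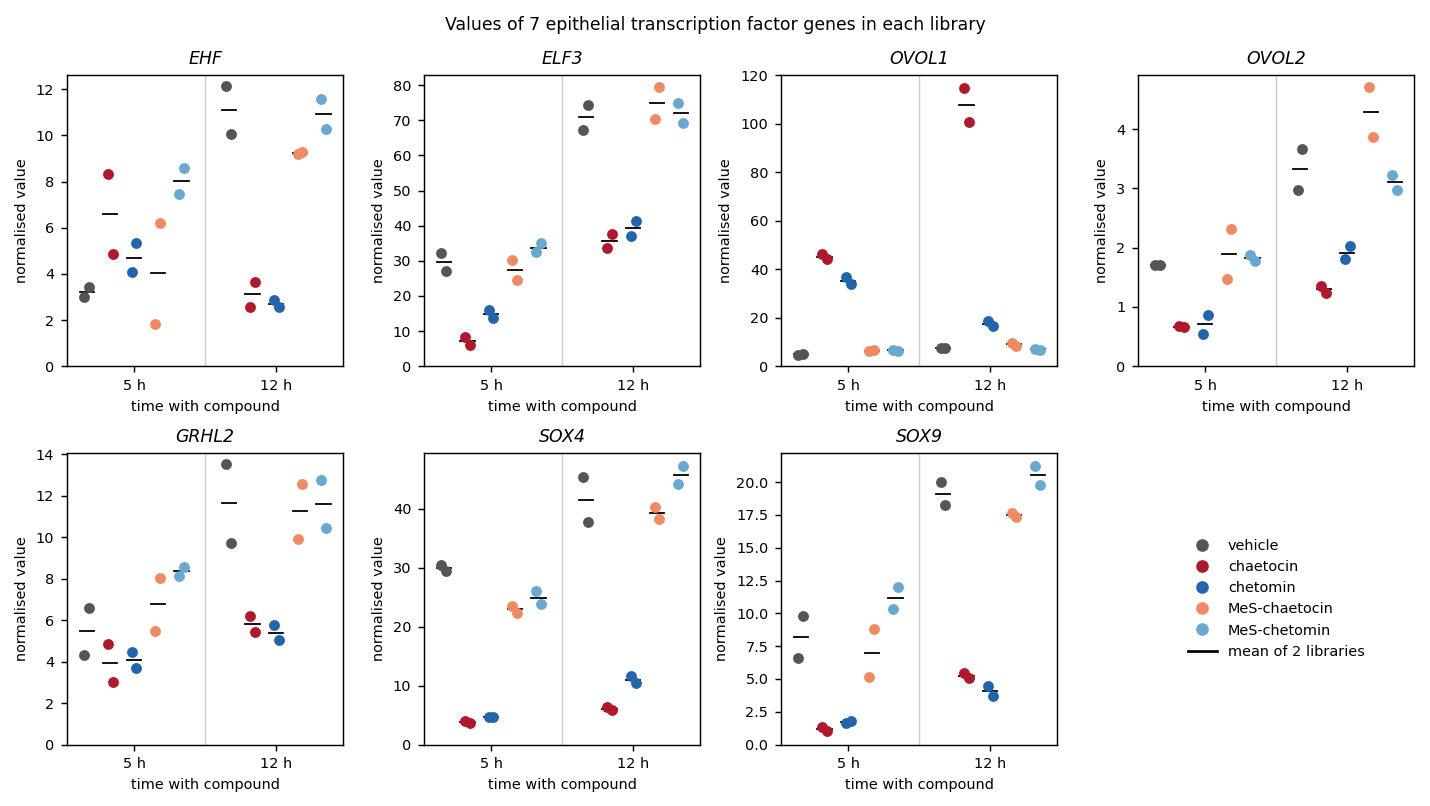
Deposited normalised value of each gene (y axis, from 0) in each library (points) at 5 h and 12 h, with the mean of the 2 libraries as a bar. OVOL1 stands at 101 and 115 with chaetocin at 12 h, and SOX4 lies at 11.6 or less in every chaetocin and chetomin library.

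ELF3, an ETS factor of epithelial differentiation (ENSG00000163435, GRCh38 chromosome 1, 202007945 to 202017188, 8 exons), was low with both disulfide compounds at both times. At 5 h its values were 32.3 and 27.0 in vehicle, 8.41 and 6.08 with chaetocin, and 15.99 and 13.78 with chetomin. Both chaetocin libraries lay below both chetomin libraries, which lay below vehicle. The difference from vehicle was -1.90 ± 0.24 for chaetocin and -0.95 ± 0.19 for chetomin (log2(value + 1) scale, SE). At 12 h vehicle stood at 67.3 and 74.3, chaetocin at 33.8 and 37.8, and chetomin at 37.1 and 41.4. Here the chaetocin and chetomin libraries overlapped, at differences from vehicle of -0.97 ± 0.14 and -0.84 ± 0.17. Values with chaetocin were 4.94 times as high at 12 h as at 5 h, and 2.39 times as high in vehicle. ELF3-AS1, an antisense gene that overlaps ELF3, had a mean of 3.03 in vehicle at 12 h. The sources used here do not give the strand setting of the counting, so reads of the 2 genes may not be told apart.

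EHF, the related ETS factor (ENSG00000135373, chromosome 11, 34621093 to 34661057, 9 exons in its longest transcript), lay on opposite sides of vehicle at the 2 times. At 5 h it stood at 2.98 and 3.45 in vehicle, 8.33 and 4.84 with chaetocin, and 4.06 and 5.34 with chetomin. Every library of the disulfide compounds was above vehicle, at log2 differences of 0.81 ± 0.31 and 0.43 ± 0.25. Without chaetocin replicate 1 the first was 0.47. EHF was also above vehicle in both MeS-chetomin libraries at 5 h, at 7.47 and 8.60. By 12 h it stood at 12.1 and 10.1 in vehicle, 2.58 and 3.67 with chaetocin, and 2.87 and 2.56 with chetomin. The compound groups overlapped each other and lay below vehicle, at differences of -1.56 ± 0.24 and -1.70 ± 0.25. EHF went from 3.21 to 11.1 between the times in vehicle, and from 6.59 to 3.13 with chaetocin. As ratios of 12 h over 5 h these are 3.45 and 0.475, and on the authors' mean CPM 2.34 and 0.719. Within a library, the ratio of EHF to ELF3 was 0.092 and 0.128 in vehicle at 5 h, 0.99 and 0.796 with chaetocin and 0.254 and 0.388 with chetomin. By 12 h it was 0.18 and 0.135 in vehicle, 0.0764 and 0.0972 with chaetocin and 0.0773 and 0.0619 with chetomin. These ratios do not depend on how libraries were scaled to each other, but they carry any adjustment for transcript length. On the authors' mean CPM at 12 h EHF and ELF3 stood at 12.65 and 91.4 in vehicle and at 5.93 and 55.3 with chaetocin. With chetomin they stood there at 4.18 and 56.3, and with MeS-chaetocin at 7.98 and 99.9. The order of the groups in this ratio therefore depends on the scale.

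OVOL1, a zinc finger repressor (ENSG00000172818, chromosome 11, 65787022 to 65797219, 4 exons), had the largest difference from vehicle among the 7 genes for chaetocin at both times. At 5 h its values were 4.52 and 5.20 in vehicle, 46.4 and 44.0 with chaetocin, and 36.7 and 33.9 with chetomin. These are 9.30-fold and 7.26-fold means, at log2 differences of 2.98 ± 0.20 and 2.63 ± 0.20. At 12 h vehicle stood at 7.61 and 7.60, chaetocin at 115 and 101, and chetomin at 18.7 and 16.5. The chaetocin mean was 14.2-fold that of vehicle (3.66 ± 0.15) and the chetomin mean 2.31-fold (1.11 ± 0.22). The mean with chaetocin was 2.38 times as high at 12 h as at 5 h, whereas with chetomin it was 0.499 times. OVOL1 at 12 h is thus where chaetocin and chetomin were farthest apart among the 7 genes, at 2.55 ± 0.15 on the log2 scale.

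OVOL2, its paralog (ENSG00000125850, chromosome 20, 17956979 to 18059188, minus strand, 4 exons), lay on the other side of vehicle. At 5 h it stood at 1.70 and 1.71 in vehicle, 0.68 and 0.66 with chaetocin, and 0.54 and 0.87 with chetomin. The difference was -0.70 ± 0.18 for chaetocin and -0.67 ± 0.19 for chetomin. At 12 h vehicle stood at 2.97 and 3.67, chaetocin at 1.36 and 1.24, and chetomin at 1.80 and 2.03, at differences of -0.91 ± 0.19 and -0.56 ± 0.22. The gene is low: its vehicle mean at 5 h rested on about 68.1 reads per library, so the pseudocount of 1 weighs on its log2 values. At a pseudocount of 0.1 its differences at 5 h reached -1.23 and -1.20. OVOL2 also spans SNX5 and MGME1, whose vehicle means at 5 h were 125 and 29.2. The ratio of OVOL1 to OVOL2 within a library was 2.66 and 3.04 in vehicle at 5 h, 68.2 and 66.7 with chaetocin, and 67.9 and 39.0 with chetomin. At 12 h it was 2.56 and 2.07 in vehicle, 84.4 and 81.1 with chaetocin, and 10.4 and 8.14 with chetomin.

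**Figure D2:**
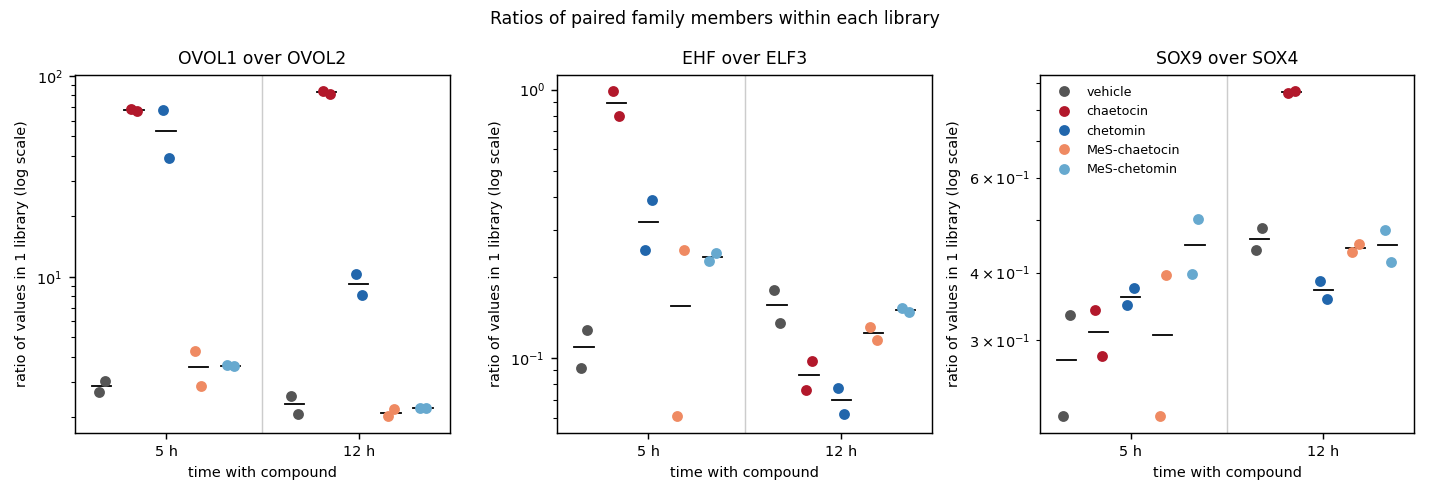
Ratio of OVOL1 to OVOL2, EHF to ELF3 and SOX9 to SOX4 (y axes, log scale) within each library (points) by compound and time, with the mean as a bar. OVOL1 over OVOL2 is 66.7 or more in the chaetocin libraries and 4.28 or less in the vehicle and analog libraries.

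GRHL2, the grainyhead factor (ENSG00000083307, chromosome 8, 101492432 to 101669726, 16 exons), had the smallest differences at 5 h. Its values were 4.33 and 6.58 in vehicle, 4.87 and 3.03 with chaetocin, and 4.46 and 3.71 with chetomin, and both compound groups overlapped vehicle. The differences were -0.39 ± 0.32 and -0.33 ± 0.28, and without 1 library ranged from -0.66 to -0.11 and from -0.58 to -0.07. At 12 h vehicle stood at 13.5 and 9.74, chaetocin at 6.22 and 5.44, and chetomin at 5.74 and 5.05. Both compound groups lay below vehicle, at -0.87 ± 0.23 and -0.97 ± 0.26.

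SOX4 (ENSG00000124766, chromosome 6, 21592768 to 21598619, 1 exon) had the lowest values relative to vehicle among the 7 genes at 5 h. It stood at 30.5 and 29.4 in vehicle, 3.98 and 3.68 with chaetocin, and 4.63 and 4.76 with chetomin. Vehicle means were 7.82 and 6.38 times those of the compounds, at log2 differences of -2.68 ± 0.21 and -2.44 ± 0.20. At 12 h vehicle stood at 45.4 and 37.8, chaetocin at 6.31 and 5.87, and chetomin at 11.6 and 10.4. Chaetocin lay below chetomin in both libraries, and the differences from vehicle were -2.58 ± 0.18 and -1.83 ± 0.20. SOX4 with chetomin was 2.34 times as high at 12 h as at 5 h, and 1.59 times as high with chaetocin.

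SOX9 (ENSG00000125398, chromosome 17, 72121020 to 72126420, 3 exons) was low at both times as well. At 5 h it stood at 6.60 and 9.81 in vehicle, 1.36 and 1.03 with chaetocin, and 1.61 and 1.78 with chetomin, at differences of -2.05 ± 0.29 and -1.75 ± 0.27. At 12 h it stood at 20.01 and 18.25 in vehicle, 5.42 and 5.10 with chaetocin, and 4.47 and 3.71 with chetomin, at differences of -1.68 ± 0.19 and -1.99 ± 0.23. Both chaetocin libraries were above both chetomin libraries at 12 h, the reverse of SOX4. The ratio of SOX9 to SOX4 within a library was accordingly 0.859 and 0.869 with chaetocin at 12 h, 0.386 and 0.358 with chetomin, and 0.44 and 0.483 in vehicle.

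Over all genes, limma with Benjamini-Hochberg adjustment over all genes tested called 11.1% of genes with chaetocin at 5 h (4.56% higher, 6.53% lower). With chetomin at 5 h it called 15.7% of genes (7.02% higher, 8.71% lower). At 12 h it called 47.0% of genes with chaetocin (20.2% higher, 26.8% lower) and 35.8% with chetomin (15.6% higher, 20.2% lower). The members were selected on these contrasts, so no count of them is given. The split of all genes depends on the scale. On the authors' CPM scale 63.9% of called genes were higher with chaetocin at 5 h, not 41.1%, and 68.7% with chetomin, not 44.6%. The share at 12 h was 67.2%, not 42.9%, and 71.7%, not 43.6%. The log2 difference of the median gene shifted on that scale by 0.18 and 0.19 at 5 h and by 0.29 and 0.25 at 12 h, and median-of-ratios scaling moved it by 0.12 and 0.10 at 5 h and by 0.18 and 0.17 at 12 h. Each member kept its direction against vehicle with chaetocin and chetomin under every alternative run.

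**Figure D3:**
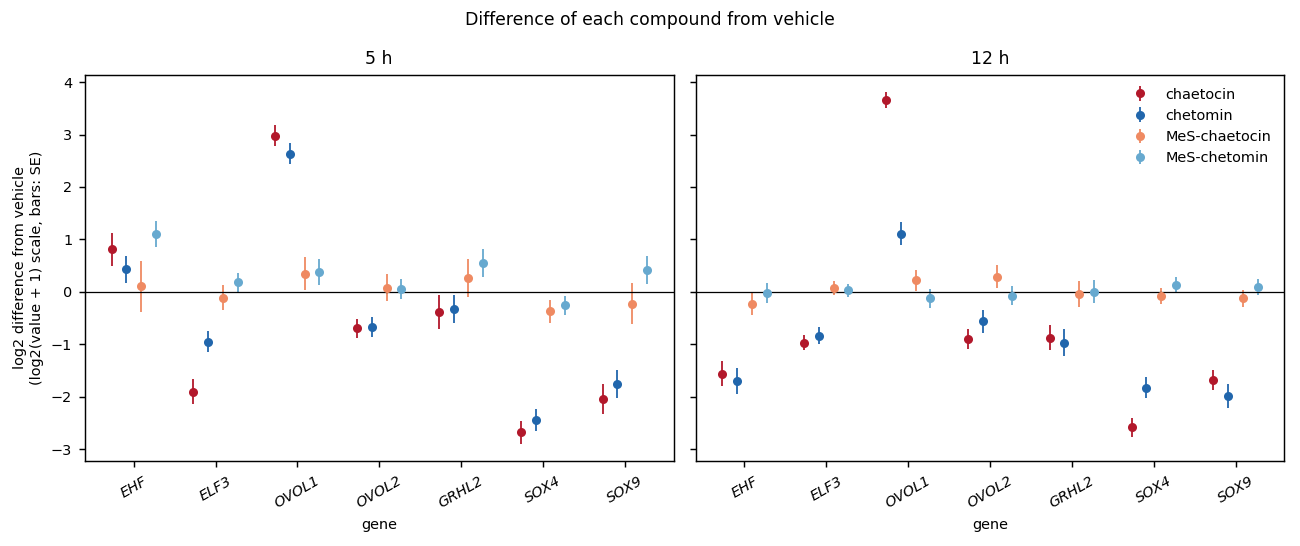
Log2 difference of each compound from vehicle (y axis, log2(value + 1) scale) for the 7 genes at 5 h and 12 h, with SE from limma as bars. Chaetocin and chetomin lie far from 0 for OVOL1, SOX4 and SOX9 at both times and for EHF at 12 h (-1.56 and -1.70). Chaetocin does so for ELF3 at 5 h (-1.90). The analogs lie within 0.56 of 0 except EHF with MeS-chetomin at 5 h.

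The selection did not use the analogs, which were given at the same dose and times, so their differences from vehicle were tested. None of the 7 genes passed the test with either analog at either time (limma without a replicate block, adjusted over all genes). With MeS-chaetocin 0% of genes were called at 5 h, and member differences ran from -0.37 for SOX4 to 0.35 for OVOL1, all with an adjusted p of 1. SOX4 stood at 23.6 and 22.3 against 30.5 and 29.4 in vehicle, which did not overlap, with a 95% interval of the difference from -0.92 to 0.18. With MeS-chetomin at 5 h 0.141% of genes were called. The libraries of all 7 members lay outside the vehicle range, as did those of 53.3% of all genes tested. EHF stood at 7.47 and 8.60, a difference of 1.10 ± 0.25 (interval 0.53 to 1.67, limma adjusted p 0.266). GRHL2, at 8.15 and 8.56, differed by 0.56 ± 0.27 (adjusted p 0.34). SOX9 differed by 0.42 and OVOL1 by 0.37, and SOX4 by -0.26.

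At 12 h 0% of genes were called with MeS-chaetocin and 0% with MeS-chetomin. limma gave no call among 14178 genes for MeS-chaetocin at 5 h, and among 15215 and 15197 genes at 12 h, where 105, 756 and 416 genes had an unadjusted p under 0.05. The 105 are well below a share of 0.05 of the 14178, so that fit gave few small p-values. No call there does not show the absence of a difference. At 12 h OVOL1 stood at 9.53 and 8.50 with MeS-chaetocin and at 7.17 and 6.64 with MeS-chetomin, against 7.61 and 7.60. Its differences were 0.22 (interval -0.29 to 0.72, adjusted p 0.806) and -0.12 (-0.58 to 0.34, adjusted p 0.856). EHF differed by -0.23 (interval -0.74 to 0.27) and -0.02 (-0.49 to 0.46). The other 5 genes differed by -0.12 to 0.29 with MeS-chaetocin and by -0.07 to 0.14 with MeS-chetomin. On the deposited values, these intervals do not reach the OVOL1 and EHF differences of chaetocin and chetomin at 12 h. Those differences helped select the members, so this is a description. In the authors' deposited table EHF at 12 h stood closer, at -0.67 with MeS-chaetocin and -1.09 with chaetocin.

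Each disulfide compound and its analog are set side by side here without a test. At 5 h OVOL1 was 2.63 ± 0.21 higher on the log2 scale with chaetocin than with MeS-chaetocin, and 2.26 ± 0.18 higher with chetomin than with MeS-chetomin. SOX4 was lower by 2.31 and 2.18, and SOX9 by 1.83 and 2.17. EHF at 5 h was 0.71 ± 0.48 higher with chaetocin than with its analog, in libraries that overlapped, and from 0.034 to 1.38 higher with 1 library left out. With chetomin it differed from its analog by -0.67. At 12 h OVOL1 was 3.44 and 1.23 higher than with the analogs, and EHF differed from the analogs by -1.32 and -1.68.

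In all, 4 pairs of compounds were compared at matched dose at each of the 2 times, with p-values adjusted over the genes of a comparison. Chaetocin and chetomin were compared with a test for the 4 members the selection rule did not name. At 5 h 0.767% of genes were called. ELF3 was lower with chaetocin by 0.96 ± 0.21 (interval of the difference -1.44 to -0.48), with a limma adjusted p of 0.108, which did not pass. OVOL2 differed by -0.02 (-0.40 to 0.36), GRHL2 by -0.06 (-0.71 to 0.59) and SOX9 by -0.30 (-0.86 to 0.26), none called. At 12 h 4.67% of genes were called and none of these 4. The differences were -0.13 for ELF3 (-0.45 to 0.19), -0.34 for OVOL2 (-0.77 to 0.09), 0.09 for GRHL2 (-0.41 to 0.60) and 0.30 for SOX9 (-0.14 to 0.75). For the other 3, given without a test, chaetocin minus chetomin was 0.35 for OVOL1 at 5 h and 2.55 at 12 h, -0.24 and -0.75 for SOX4, and 0.38 and 0.14 for EHF. With 1 library left out, the EHF difference ranged from 0.044 to 0.72 at 5 h and from -0.052 to 0.33 at 12 h. The analogs were also compared with each other, where 0% of genes at 5 h and 0.00656% at 12 h were called and no member. EHF at 5 h differed most, by -0.99 ± 0.44 (MeS-chaetocin minus MeS-chetomin, adjusted p 0.635), with MeS-chaetocin libraries at 1.84 and 6.21.

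EHF also differed between the scales of the deposited tables. The authors' mean CPM per unit of value moves with the length of the transcripts counted. It tracked transcript length across 12604 genes (Spearman rho 0.75, a description across genes). For EHF at 5 h this quotient, compound over vehicle, was 0.635 of that of the median gene with chaetocin, lower than in all but 1.56% of genes. It was 0.752 with chetomin, 0.723 with MeS-chaetocin and 0.691 with MeS-chetomin, all of which share the vehicle libraries. The 12 h quotient was 1.296 with chaetocin, above 97.3% of genes, 1.08 with chetomin, 0.743 with MeS-chaetocin (4.15% of genes lower) and 1.21 with MeS-chetomin (93.2% lower). For OVOL1, SOX4 and SOX9 it stayed between 0.969 and 1.04 in all 8 comparisons. GRHL2 stood at 0.797 with MeS-chaetocin at 5 h (3.002% of genes lower) and at 1.20 with chetomin at 12 h (94.2% lower). ELF3 and OVOL2 were lowest with chetomin at 12 h, at 0.889 each. In the authors' deposited table the EHF log2 fold change at 12 h was -1.09 for chaetocin and -1.60 for chetomin, and at 5 h 0.60 and 0.36. For MeS-chaetocin the authors' deposited table gives EHF -0.13 at 5 h, where the difference on the deposited values was 0.10, and -0.67 at 12 h, where it was -0.23. For OVOL1 the authors' deposited table gives 4.21 and 1.55 at 12 h. EHF has 12 transcripts in GENCODE 29; transcript levels were not analysed here.

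**Figure D4:**
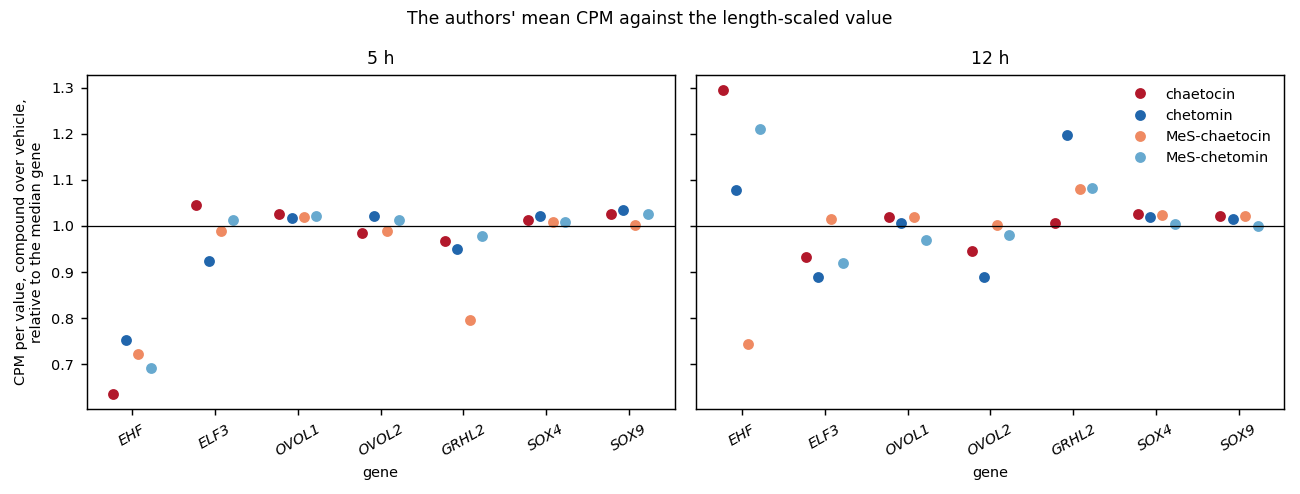
The authors' mean CPM divided by the mean deposited value, compound over vehicle, relative to the median gene (y axis), for the 7 genes at each time. EHF lies between 0.635 and 0.752 for the 4 compounds at 5 h, while OVOL1, SOX4 and SOX9 lie near 1.

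Correlations between members restate in part the values that selected them. As a description over 20 libraries that share 2 sets of vehicle libraries, each taken as its difference from the vehicle mean of its time, Pearson r between SOX4 and SOX9 was 0.94 and between SOX4 and OVOL2 0.91. OVOL1 ran opposite to SOX4 (r = -0.95). For EHF, r was 0.76 to GRHL2 and 0.11 to ELF3. Of 9068 genes with a mean value of at least 5, those most like OVOL1 by the same measure were U62317.3, JUNB (an AP-1 factor) and PGF (placental growth factor), each at 0.97. Most like SOX4 were SEPHS2 (0.99), a selenophosphate synthetase, and MRFAP1L1 (0.98). Most like EHF were APOBEC3C, a cytidine deaminase, PTK2 (focal adhesion kinase) and MAGI1, a scaffold of tight junctions, each at 0.95.

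The genes of the epithelial programme form a list of 57 genes for junctions, splicing, keratins and surface proteases. This list was chosen with earlier results of these data known, and all 57 were measured. Its shares and medians beside those of all genes are therefore descriptions. At 5 h 5 of 57 (8.77%) fell with chaetocin and none rose, beside 6.53% of all genes that fell. With chetomin 4 (7.02%) fell, beside 8.71% of all genes, so both shares were near the background. The 5 were PRSS8, CLDN4, ESRP1, MARVELD3 and GRB7, and the 4 were MARVELD3, CLDN4, ESRP2 and ESRP1. CLDN4, a tight junction claudin, fell from 44.96 ± 6.43 to 16.1 ± 2.32 with chaetocin (SD, n = 2, limma adjusted p 0.0103) and to 17.2 ± 0.24 with chetomin (0.00401). At 12 h 32 of 57 fell and 2 rose with chaetocin, where 26.8% of all genes fell, and 28 fell and none rose with chetomin, where 20.2% fell. The others did not pass. The list's median was -0.80 and -0.73, beside -0.16 and -0.15 for all genes tested. In the median-of-ratios scaling 24 fell and 4 rose with chaetocin and 23 fell and 1 rose with chetomin, and on the authors' CPM scale 23 and 6, and 18 and 4.

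ESRP1 and ESRP2, the epithelial splicing regulators, fell at 12 h with chaetocin from 52.1 ± 14.2 to 13.4 ± 0.79 and from 17.8 ± 0.07 to 3.63 ± 0.39 (limma adjusted p 0.00145 and 0.000897). TJP3, a tight junction scaffold, fell by 2.28 ± 0.26 with chaetocin and by 2.10 ± 0.27 with chetomin on the log2 scale. PRSS8, a membrane serine protease, fell by 1.53 with chaetocin. PPL, a plakin of the cornified envelope and desmosomes, fell by 1.66 and CLDN4 by 1.57 with chetomin. The 2 that rose with chaetocin were MYO5B (0.92), a motor of apical recycling, and KRT20 (0.39), a keratin of differentiated intestinal cells. KRT20 was low, at 0.375 in vehicle at 5 h, and a low gene may be listed only through libraries where it was higher. Some abundant markers did not pass in either comparison: EPCAM stood at -0.05 and 0.01, KRT8 at 0.31 and 0.35 and CLDN7 at 0.02 and -0.01. KRT19, also abundant, fell with chaetocin from 823.5 ± 193 to 460 ± 33.7 (limma adjusted p 0.013). CDH1, E-cadherin, fell with chetomin from 19.7 ± 1.69 to 10.8 ± 0.54 (0.0187) and stood at -0.53 with chaetocin. Between chaetocin and chetomin no list gene was called at 5 h and 1 at 12 h, ESRP1 (13.4 against 27.1, limma adjusted p 0.0329). No list gene was called with an analog.

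These counts need both libraries of a compound. Left with a single compound library, which is then assumed to vary as the others do, 1 and 0 list genes were called for chaetocin at 12 h (without replicate 1 and without replicate 2) and 0 and 0 for chetomin. At 5 h it was 0 and 2 for chaetocin and 0 and 0 for chetomin. Without vehicle replicate 1 at 5 h, where 10 genes made up 20.3% of the summed value against 9.42% to 17.3% in the other 19 libraries, chetomin called 15 list genes, and without vehicle replicate 2 it called 7. Over all genes, calls fell as well, from 7230 to 1633 and 1638 for chaetocin at 12 h and from 5503 to 882 and 987 for chetomin.

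**Figure D5:**
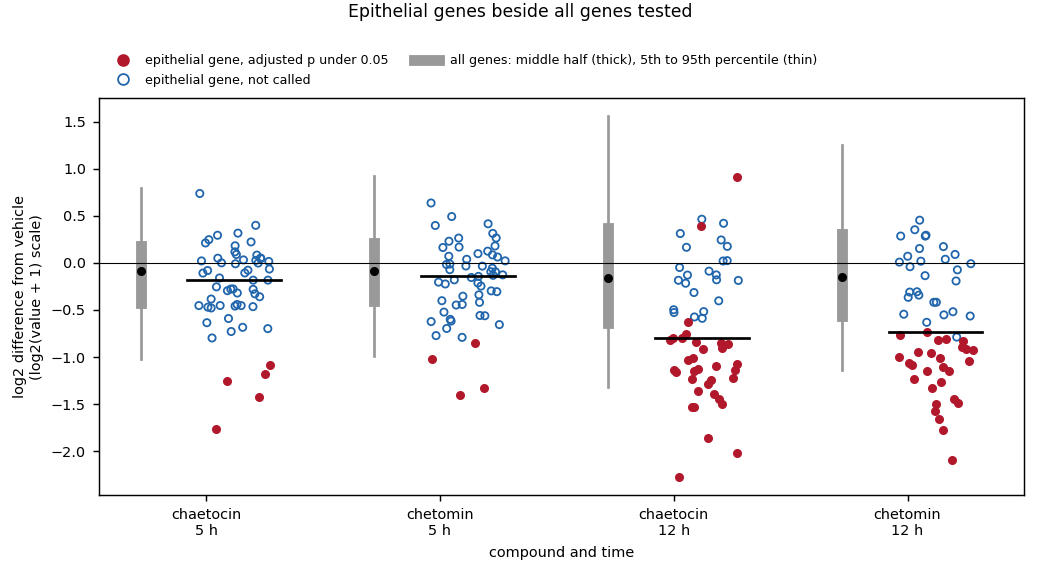
Log2 difference from vehicle (y axis, log2(value + 1) scale) of 57 epithelial genes (points, filled where the adjusted p was under 0.05, bar at the median) beside all genes tested (grey, dot at the median). At 12 h the medians of the list are -0.80 and -0.73, and those of all genes -0.16 and -0.15.

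Markers of the cell line and of other cells were checked beside these results. Of 10 colon epithelial markers 6 were listed, and CDH17, GPA33, LGALS4 and VIL1 were not. In vehicle at 5 h EPCAM was at 330, KRT8 at 2154 and CDX2 at 10.98, and the summed level of the 6 was 4197 to 4788 in vehicle and 4671 to 5487 with chaetocin or chetomin. It was 3340 to 4388 and 4078 to 4408 at 12 h. KRT8, KRT18 and KRT19 make up most of this sum (2154, 1189 and 799 in vehicle at 5 h), so a change of CDX2 does not show in it. Of 19 markers of other cell types, 5 were listed at 5 h and 8 at 12 h. Their summed level was 1.96 and 3.47 in vehicle at 5 h, 11.6 and 9.13 with chaetocin, and 11.8 and 10.2 with chetomin. The sum at 12 h was 7.10 and 11.3 in vehicle, and 21.1 to 24.8 with chaetocin or chetomin. At 5 h 3 of these markers rose with each (ALB, CD14 and CD68), where 4.56% and 7.02% of all genes rose. At 12 h 6 rose with chaetocin and 5 with chetomin, where 20.2% and 15.6% of all genes rose. Genes at or near 0 in vehicle may be listed only through libraries where they were high. Their rises would then be set by the listing, so these counts are descriptions. ALB, albumin, was listed at 0 in vehicle at 12 h and at 3.75 and 5.00 with the compounds. Their part in the results was not tested. In bulk RNA, fewer cells of a type and less RNA per cell cannot be told apart. The values used here are not counts. Steps between low values put the effective library size at 24.6 to 39.8 M reads in the 12 vehicle and analog libraries, where 60% to 83.7% of the low genes used came out whole, and gave none for the 8 others.

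Counts of the other lists stand beside 11.1% and 15.7% of all genes called with chaetocin and chetomin at 5 h, and 47.0% and 35.8% at 12 h. These lists too were chosen with earlier results of these data known, so their counts are descriptions. Of 26 other ETS factors, 16 were measured at 5 h and 19 at 12 h. With chaetocin 2 fell at 5 h (ETS2 and ETV5), and at 12 h 9 fell and 4 rose (68.4% of those measured). With chetomin 5 fell at 5 h, led by ELF2 (-1.298) and ETS2 (-1.25), and at 12 h 7 fell and 2 rose (47.4%). ETV1 fell by 1.62 and 1.75 at 12 h and GABPA rose by 1.498 and 1.44. SPI1, a factor of myeloid cells, was listed at 0 in vehicle at 12 h and at 1.64 ± 0.25 with chaetocin. A gene at 0 in vehicle may be listed only through the compound libraries, so this rise, counted among the 4, is a description. ETV5 was lower with chaetocin than with chetomin at 12 h (8.41 against 18.3, limma adjusted p 0.02). Of 5 other grainyhead family genes measured, 4 fell with chaetocin at 12 h, UBP1 (-1.39), TFCP2L1 (-0.99), TFCP2 (-0.96) and GRHL1 (-0.68), and UBP1 alone with chetomin (-1.14). None passed at 5 h.

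Of 7 other SOX genes measured, SOX13 fell and SOX30, SOX8 and SOX15 rose with chaetocin at 12 h. SOX8 went from 2.19 ± 0.19 to 11.8 ± 1.08 (limma adjusted p 0.00109), and with chetomin to 8.53 ± 0.02 (0.00235). SOX30, a testis factor, was at 0.055 in vehicle at 5 h and at 2.87 and 3.29 with the disulfide compounds, both called. Like SPI1, SOX30 may be listed only through the compound libraries, so its rises are descriptions. SOX15 and SOX12 were higher with chaetocin than with chetomin at 12 h, at 6.23 against 1.56 and 20.7 against 11.3 (0.0235 and 0.0348). Mesenchymal factors were mixed. At 12 h 4 of 8 rose and 1 fell with chaetocin, and 3 rose and 2 fell with chetomin (62.5% called in each, beside 47.0% and 35.8% of all genes). SNAI1, a repressor of E-cadherin, rose from 5.73 ± 0.37 to 19.0 ± 0.72 and to 16.9 ± 0.39 (0.00156 and 0.00277). VIM, vimentin, rose from 0.61 to 3.38 and 2.88, and SNAI2 from 0.155 to 1.51 and 1.27. SNAI2, near 0 in vehicle, has the same limit as SOX30. VIM, also low in vehicle, may share it, so the rises of SNAI2 and VIM, counted above, are descriptions. ITGA5, an integrin subunit, fell by 2.11 and 1.44.

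Of 17 intestinal transcription factor and stem cell genes measured, 5 fell with chaetocin and 4 with chetomin at 5 h, and none rose. CDX2, the intestinal homeobox factor, went from 10.98 ± 1.41 to 3.15 ± 0.28 and 3.41 ± 0.23 (limma adjusted p 0.0153 and 0.00855). KLF4, a factor of goblet cells, fell by 1.91 and 1.03, and GATA6 by 1.02 and 0.87. At 12 h 9 fell and 5 rose with chaetocin (82.4% called, beside 47.0% of all genes), and 9 fell and 1 rose with chetomin (58.8%, beside 35.8%). CDX2 fell by 1.85 and 1.91, VDR, the vitamin D receptor, by 1.20 and 1.36, and TCF7L2, a Wnt effector, by 1.498 with chetomin. CD44, HES1 and FOXA3 were higher with chaetocin than with chetomin at 12 h, by 0.77, 0.88 and 1.28.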

How the data were processed

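HCT116 RNA was sequenced in 20 libraries. Reads were processed with STAR 2.5.2b, RSEM 1.3.3 and edgeR on GRCh38, per the submitters' processing notes. Per-library values are the authors' deposited normalized signal, not counts, so no count model was run; the sources used here do not give the method of normalization. The authors' deposited tables also hold group mean CPM, log2 fold changes and p-values. Values were taken as log2(value + 1) and tested with limma 3.58.1 (R 4.3.3, trended prior, two-sided), adjusted by Benjamini-Hochberg over all genes tested, at 0.05. Vehicle comparisons used 4 libraries; compounds were compared in fits of 6 that include vehicle. The script was tested on simulated data. Alternatives were a pseudocount of 0.1, leaving out genes with a mean under 1, median-of-ratios scaling, the authors' CPM scale, all libraries of a time, a replicate block, and leaving out each library. Gene positions are from GENCODE 29, and upstream sequences from RefSeq.

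The members and gene lists were chosen with earlier results of these data known. Named are all members, up to 4 called genes per list with the largest difference in each comparison of chaetocin or chetomin with vehicle, and the 3 genes most like each of EHF, OVOL1 and SOX4, of which 1 is not reported here. GRB7, MYO5B, KRT20, EPCAM, KRT8, CLDN7, SOX12 and HES1 were named after their values were seen, as were the genes called between chaetocin and chetomin.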

Additional observations from a re-analysis of the deposited data

Results flagged for a closer look

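EHF lay on opposite sides of vehicle at the 2 times, in both libraries of each disulfide compound. Its log2 difference from vehicle was 0.81 at 5 h and -1.56 at 12 h with chaetocin, and 0.43 and -1.70 with chetomin. Both libraries of 1 analog, MeS-chetomin, were above vehicle at 5 h as well, in a difference that did not pass. EHF with MeS-chetomin was above vehicle by 1.10 at 5 h (limma adjusted p 0.266), and chetomin differed from that analog by -0.67. The authors' deposited table gives 0.65 for MeS-chetomin. With MeS-chaetocin the 5 h libraries stood at 1.84 and 6.21, on either side of vehicle at 2.98 and 3.45. OVOL1 with MeS-chetomin was 0.37 above vehicle at 5 h and differed by -0.12 at 12 h, with both libraries above vehicle at 5 h and both below at 12 h. The difference between times was not tested in any of these, because the tables of the 2 times may have been normalized separately. Neither OVOL1 value passed its own test, and the EHF values with chaetocin and chetomin were among those that selected the gene.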

How the results depend on the processing

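With 2 libraries a group, precision is set by the spread of single pairs, and low genes rest on few reads. All member differences of chaetocin and chetomin from vehicle kept their direction under the 10 alternatives run. The number of epithelial genes called depended on single libraries. With 1 library left out it ranged from 0 to 7 for chaetocin and from 0 to 15 for chetomin at 5 h, and from 0 to 36 and from 0 to 28 at 12 h. It ranged from 0 to 5 for MeS-chetomin at 5 h, and it was 0 in all 4 such fits of chaetocin against chetomin at 12 h. With all libraries of a time in 1 fit, 7 were called for chetomin at 5 h and 3 for chaetocin against chetomin at 12 h. The cause was not tested.

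Replicate numbers were not shown to pair libraries. Deviations of same-numbered libraries from their group means correlated with those of vehicle at -0.685 (chaetocin), 0.0616 (chetomin), 0.803 (MeS-chaetocin) and 0.187 (MeS-chetomin) at 5 h, and at -0.4, 0.106, -0.472 and -0.432 at 12 h. With a replicate block, MeS-chetomin at 5 h called 2 epithelial genes in place of 0, 1149 genes in place of 20, and EHF (1.10, limma adjusted p 0.00524, between 0.00524 and 0.909 over the alternatives). Chetomin at 5 h went from 2237 to 3112 genes.

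Sign changes occurred in 38 values of 19 tested member results, none called (lowest limma adjusted p 0.585, largest size 0.57). In median-of-ratios scaling they were OVOL2 (-0.051) for MeS-chetomin at 5 h, GRHL2 (-0.0092) for it at 12 h, and OVOL1 (0.12) and SOX4 (0.045) for MeS-chaetocin against MeS-chetomin at 5 h. On the authors' CPM scale they were OVOL2 (-0.022) for MeS-chetomin at 5 h, ELF3 (-0.057) and GRHL2 (-0.071) for it at 12 h, and OVOL1 (0.094) and SOX4 (0.022) at 5 h and GRHL2 (0.061) at 12 h between the analogs. The rest arose with 1 library left out, the lone library being assumed to vary as the others do, over the ranges given. For MeS-chaetocin against vehicle at 5 h they were EHF (-0.57 to 0.78), ELF3 (-0.25 to 0.033), OVOL2 (-0.13 to 0.29), SOX9 (-0.57 to 0.12). For chaetocin against chetomin at 5 h they were OVOL2 (-0.16 to 0.12), GRHL2 (-0.33 to 0.21). For MeS-chaetocin against MeS-chetomin at 5 h they were OVOL1 (-0.064 to 0.010), OVOL2 (-0.19 to 0.23). For MeS-chaetocin against vehicle at 12 h they were ELF3 (-0.0086 to 0.16), GRHL2 (-0.26 to 0.18), SOX4 (-0.20 to 0.057). For MeS-chetomin against vehicle at 12 h they were EHF (-0.14 to 0.11), ELF3 (-0.043 to 0.096), OVOL2 (-0.19 to 0.046), GRHL2 (-0.21 to 0.23). For MeS-chaetocin against MeS-chetomin at 12 h they were ELF3 (-0.035 to 0.14), GRHL2 (-0.20 to 0.11).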
